A study of Mus musculus with 16 samples.

Results

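The blood-brain barrier genes of the cortical endothelium were followed here as 10 genes of 24421 in the deposited tables. The genes are Cldn5, Cdh5, Pecam1, Flt1, Tek, Ly6c1, Slc2a1, Mfsd2a, Slco1a4 and Abcb1a. They were chosen by name as rows of the gene column, with earlier results of these data known. Each had exactly 1 row in every table, and all 10 had reads in every library and were tested in every comparison. RNA of the somatosensory cortex was sequenced from mice labelled male and aged 2 to 3 months, either left undisturbed (CTL) or sleep disrupted by gentle handling for 8 h from zeitgeber time (ZT, hours after light onset) 20 to ZT4 (SD), and all mice were killed at ZT4. The mice were wild-type C57BL/6 (WT) or homozygous AcPb-/- (AcPbKO), a line without the isoform AcPb of the IL1 receptor accessory protein, and both lines were bred at the study site for 5 to 7 generations. Each of the groups CTL-WT, SD-WT, CTL-AcPbKO and SD-AcPbKO had 3 libraries with columns, from separate mice by the labels, and 4 further samples of the labels were not analysed here. The comparisons ask how SD changed transcript levels in each genotype and whether the genotypes differed.

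Endothelial cells of brain capillaries are sealed to one another by tight junctions and form few transport vesicles. Most solutes thus cross only through transporters. Claudin-5, the product of Cldn5, seals the tight junction, VE-cadherin (Cdh5) and PECAM-1 (Pecam1) hold neighbouring cells together, and the receptors VEGFR1 (Flt1) and Tie2 (Tek) receive VEGF and angiopoietin signals. Slc2a1 encodes the glucose transporter GLUT1, Mfsd2a a carrier of lysophospholipids with omega-3 fatty acids that is also known to limit vesicle transport, Slco1a4 an organic anion transporter, Abcb1a the drug efflux pump P-glycoprotein, and Ly6c1 a surface antigen used to mark brain microvessels.

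Reads on genes ranged from 26504840 to 41615582 in the control libraries and from 58770286 to 71857505 in the SD libraries, so depth differed with SD in both genotypes. Of the 12 libraries, 4 had between 25352 and 39358 reads of Xist, which is made from an inactive X chromosome, and at most 2 reads of Uty, Kdm5d, Eif2s3y and Ddx3y of the Y chromosome, although all mice were labelled male. These were CTL-WT replicates 02 and 03 and CTL-AcPbKO replicates 04 and 05. The other 8 libraries had at most 13 Xist reads and at least 5105 Y-linked reads. Every SD library was thus without Xist and only 1 control per genotype was, and the members' SD values are given below also with these libraries treated apart. SD-AcPbKO replicate 04 stood apart in Ttr, a marker of the choroid plexus, with 16186 normalized counts against 10.6 to 283.1 in the other 11 libraries. Il1rap, whose row cannot separate the isoform missing in AcPb-/- mice, was at 1476 to 1520 normalized counts in CTL-WT and at 1515 to 1647 in CTL-AcPbKO, so the row does not check the genotype.

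Values by library are normalized counts, that is reads divided by a library size factor computed over the 12 libraries together. Fold changes come from the 6 libraries of each deposited comparison with limma's moderated test on log2(normalized count + 1), given as log2 fold change ± standard error (SE) with Benjamini-Hochberg adjusted p-values over every gene in the test. A gene was called when its adjusted p was under 0.05. The lowest member value was 486 reads. Counting error was not separated from the spread between mice. In some control groups the spread was of a size that counting error alone can reach, such as 1.75% of the mean for Ly6c1 in CTL-WT, at 781 to 1005 reads. In bulk tissue, fewer endothelial cells and less RNA per endothelial cell cannot be told apart. RNA of the members from other cells of the tissue was not separated either.

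The promoters of 4 members are shown from RefSeq on GRCm38.p6, from 250 bases before to 50 bases after the annotated start, in the direction of transcription. They were chosen because Mfsd2a and Ly6c1 had the largest positive and Cldn5 the largest negative log2 fold change with SD, and Slc2a1 is the other member with a motif in common with Mfsd2a. Capitals mark the letters ACGTG, the core of a hypoxia response element, and GGAAG, the core bound by ETS factors of the endothelium, each on either strand.
Mfsd2a, chr4:122961139-122961438, minus strand: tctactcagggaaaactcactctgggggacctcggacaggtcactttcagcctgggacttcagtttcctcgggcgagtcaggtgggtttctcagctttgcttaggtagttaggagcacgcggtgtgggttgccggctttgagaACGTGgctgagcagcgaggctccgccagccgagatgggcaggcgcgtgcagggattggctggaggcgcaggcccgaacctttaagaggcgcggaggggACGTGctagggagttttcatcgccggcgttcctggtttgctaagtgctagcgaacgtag
Slc2a1, chr4:119108495-119108794, plus strand: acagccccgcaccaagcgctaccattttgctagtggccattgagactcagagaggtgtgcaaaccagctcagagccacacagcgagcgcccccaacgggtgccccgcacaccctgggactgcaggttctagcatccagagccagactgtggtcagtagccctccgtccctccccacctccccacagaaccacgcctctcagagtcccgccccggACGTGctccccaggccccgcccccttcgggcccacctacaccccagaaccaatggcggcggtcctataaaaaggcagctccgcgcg
Ly6c1, chr15:75048788-75049087, minus strand: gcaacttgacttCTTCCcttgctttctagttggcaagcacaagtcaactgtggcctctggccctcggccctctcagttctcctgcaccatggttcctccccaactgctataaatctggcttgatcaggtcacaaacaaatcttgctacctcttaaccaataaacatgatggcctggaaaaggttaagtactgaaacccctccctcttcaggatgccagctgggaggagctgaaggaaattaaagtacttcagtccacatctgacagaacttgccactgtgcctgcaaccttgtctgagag
Cldn5, chr16:18776597-18776896, plus strand: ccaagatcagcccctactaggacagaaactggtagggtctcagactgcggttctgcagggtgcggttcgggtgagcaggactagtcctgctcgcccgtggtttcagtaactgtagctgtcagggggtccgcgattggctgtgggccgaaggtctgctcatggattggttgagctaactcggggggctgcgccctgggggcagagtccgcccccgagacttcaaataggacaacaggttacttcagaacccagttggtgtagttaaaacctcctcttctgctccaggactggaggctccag
The letters ACGTG stood 2 times in the Mfsd2a window and 1 time in that of Slc2a1, and in no other member window. They occurred in 19.6% of all 32851 promoter windows of this length. The letters GGAAG were found in the windows of Ly6c1, Flt1, Slco1a4 and Abcb1a and in 71.4% of all windows, so a match to them is common. Neither was found in the Cldn5 window. The letters ACAAT, a core bound by SOX factors, were in the windows of Tek and Slco1a4 and in 31.0% of all windows, and TGTTCT, a glucocorticoid receptor half-site, in those of Tek and Abcb1a and in 19.0% of all. Ly6c1 has 2 annotated starts, and the window of the upstream one is shown. The Abcb1a window, chr5:8566841-8567140, is that of a RefSeq start far upstream of the GENCODE gene start at chr5:8660077. A match of letters is no measured binding site. The table has entries for 8 of the 10 members and none for Cdh5 and Pecam1.

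The order of the members by level changed with SD. Per kilobase of annotated exon (GENCODE M21), the CTL-WT means were 1229 ± 134 normalized counts (standard deviation, n = 3) for Slc2a1, 1196 ± 30.5 for Cldn5, 658 ± 11.5 for Ly6c1, 486 ± 67.8 for Slco1a4, 411 ± 9.94 for Abcb1a and 406 ± 42.3 for Mfsd2a. Flt1 followed with 255 ± 7.29, then Cdh5 with 240 ± 15.9, Tek with 221 ± 20.6 and Pecam1 with 185 ± 10.1. Among neighbours in this order, Slc2a1 and Cldn5, Slco1a4 and Abcb1a, Abcb1a and Mfsd2a, Flt1 and Cdh5, and Cdh5 and Tek did not differ beyond the spread of the libraries. In SD-WT the order began with Slc2a1 (1544 ± 148), Ly6c1 (1089 ± 58.2), Mfsd2a (1003 ± 98.6) and Cldn5 (921 ± 55.3), where Mfsd2a overlapped both Ly6c1 and Cldn5. All Cldn5 libraries of SD-WT were below those of Ly6c1, a gene that Cldn5 exceeded in the controls. The same 4 genes led in the same order in SD-AcPbKO, at 1373 ± 78.6, 904 ± 63.0, 882 ± 265 and 797 ± 157, where the last 3 overlapped.

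With SD, 6 of the 10 genes passed the threshold in wild-type mice, against 25.4% of the 20417 genes tested. Of these 6, 5 were higher, where 13.2% of all genes were called higher, and 1 was lower, where 12.2% were called lower. For 5 members the SD and control libraries did not overlap, against 40.2% of all genes. The median log2 fold change of the 10 members was 0.26, and that of all genes tested was -0.0039. In AcPb-/- mice 5 of the 10 passed, 4 of them higher and 1 lower, against 27.4% of 20574 genes, 14.1% higher and 13.3% lower. There 6 members had groups that did not overlap, against 42.3% of all genes, and the members' median log2 fold change was 0.14 with 0.014 over all genes. Mfsd2a, Ly6c1, Flt1 and Pecam1 were called higher and Cldn5 lower in both genotypes. The shares over all genes, here and below, include every gene with at least 1 read, also genes with far fewer reads than the members. Shares among genes at the members' level are not given here. As the members were chosen with earlier results of these data known, their counts are a description only.

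**Figure D1:**
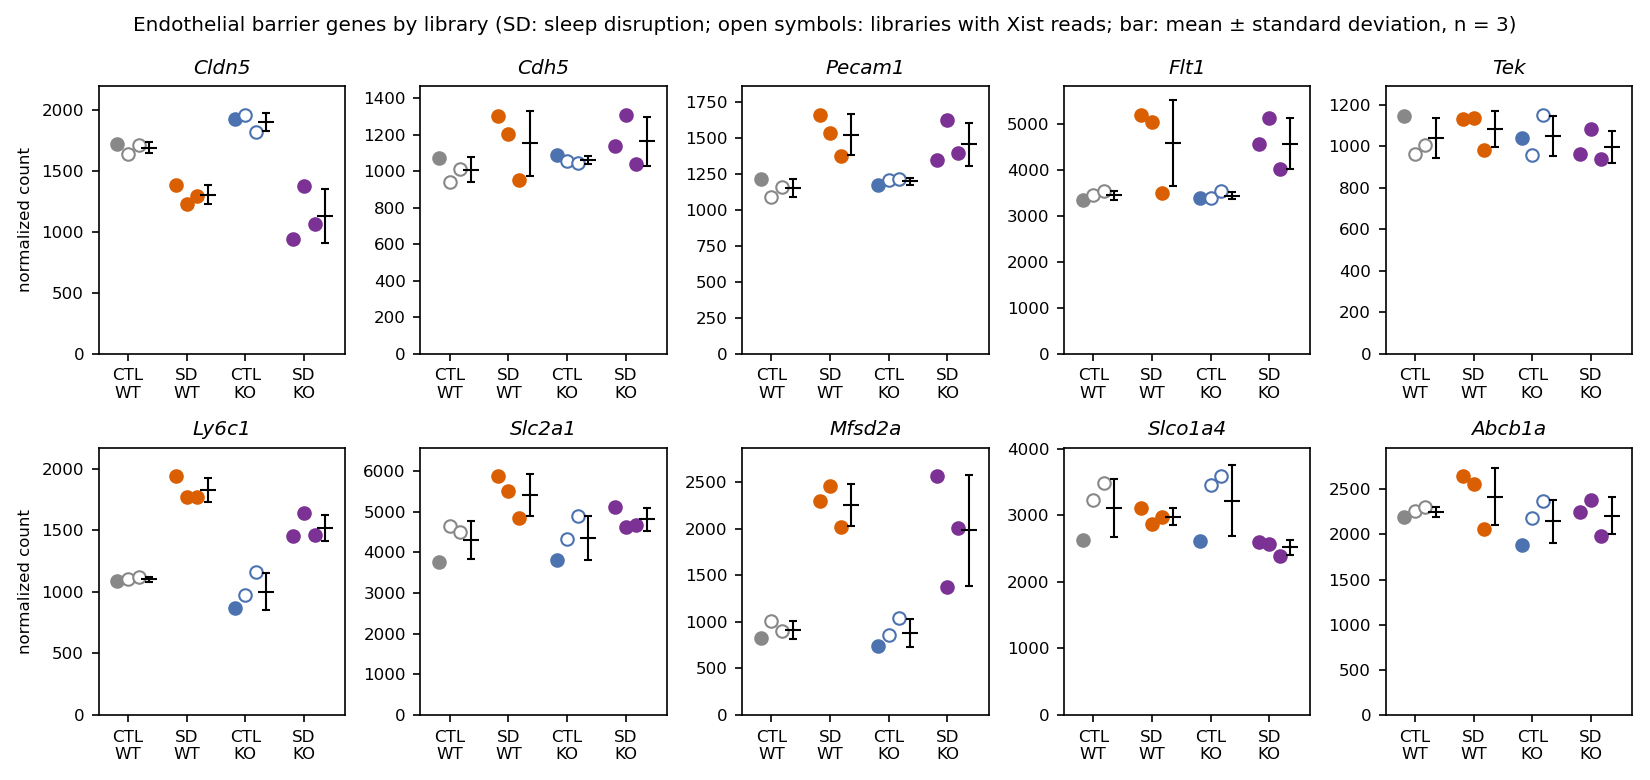
Normalized count (y axis, from 0) of each of the 10 genes in the 12 libraries by group (x axis), with mean ± standard deviation (n = 3) beside the points and open symbols for the 4 control libraries with Xist reads. All SD libraries of Mfsd2a and Ly6c1 lie above all controls, those of Cldn5 lie below, and Tek overlaps in every group.

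Mfsd2a (GRCm38 chr4:122946850-122961188, minus strand) had the largest change of the 10. In CTL-WT replicates 01, 02 and 03 it was at 823, 1013 and 905 normalized counts, and in SD-WT replicates 01, 02 and 04 at 2295, 2456 and 2017. The groups were far apart, with every SD library above every control. The log2 fold change was 1.30 ± 0.09 (95% confidence interval 1.09 to 1.51, limma adjusted p = 0.000135), a 2.47-fold increase. In AcPb-/- mice the controls 03, 04 and 05 had 744, 858 and 1046, and the SD libraries 02, 03 and 04 had 2565, 1375 and 2013. Here replicate 03 stayed nearest to the controls and the SD group spread more widely. The log2 fold change was 1.14 ± 0.21 (0.66 to 1.62, limma adjusted p = 0.00539).

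Slc2a1 (chr4:119108711-119137983, plus strand) was at 3771, 4641 and 4513 normalized counts in CTL-WT and 5879, 5508 and 4852 in SD-WT. The groups did not overlap, and the nearest libraries were CTL-WT 02 and SD-WT 04. The gene rose by a log2 fold change of 0.33 ± 0.09 (0.12 to 0.54, limma adjusted p = 0.0260). The adjusted p was 0.0753 without CTL-WT replicate 01, 0.112 without SD-WT replicate 01 and 0.0938 without SD-WT replicate 02. The AcPb-/- controls were at 3812, 4335 and 4906 and the SD libraries at 5131, 4634 and 4677. These overlapped, and the log2 fold change of 0.15 ± 0.09 (-0.06 to 0.36) did not pass the threshold (limma adjusted p = 0.257).

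The other transport genes did not pass in either genotype. Slco1a4 (chr6:141805440-141856199, minus strand) was at 2637, 3225 and 3486 in CTL-WT, 3107, 2864 and 2974 in SD-WT, 2618, 3461 and 3589.6 in CTL-AcPbKO and 2594, 2566 and 2396 in SD-AcPbKO. All SD-AcPbKO libraries lay below all CTL-AcPbKO libraries, the nearest being the control without Xist. The log2 fold changes were -0.06 ± 0.09 in wild-type mice (limma adjusted p = 0.707) and -0.34 ± 0.11 in AcPb-/- mice (-0.60 to -0.08, limma adjusted p = 0.0534). For the AcPb-/- comparison the adjusted p on recovered reads was 0.0114 by DESeq2 and 0.0367 by edgeR, 0.0460 when only genes with a mean of at least 10 were tested, 0.0385 with all 4 groups in the limma fit, and 0.00228 without CTL-AcPbKO replicate 03, the control without Xist. With the term for Xist that is described below the log2 fold change was -0.08 (limma adjusted p = 0.407), and without the libraries with Xist it was -0.06 (limma adjusted p = 0.647).

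Abcb1a (chr5:8660077-8748575, plus strand) was at 2194, 2256 and 2302 in CTL-WT, 2646, 2558 and 2056 in SD-WT, 1888, 2177 and 2367 in CTL-AcPbKO and 2253, 2385 and 1988 in SD-AcPbKO. SD-WT replicate 04 was the lowest of the wild-type libraries while the other 2 SD libraries were the highest. The log2 fold changes were 0.10 ± 0.09 (-0.11 to 0.30, limma adjusted p = 0.492) and 0.05 ± 0.10 (-0.18 to 0.27, limma adjusted p = 0.750). Without SD-WT replicate 04 the wild-type value was 0.21 (limma adjusted p = 0.0171). Of the 100-base stretches of Abcb1a exons, 13.4% occur in another gene, such as the paralog Abcb1b (9.03%) and Gm42686 on the other strand (6.61%). How far these stretches affect its counts was not tested.

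Cldn5 (chr16:18776847-18778262, plus strand) was the only member called lower in both genotypes. It was at 1723, 1644 and 1713 normalized counts in CTL-WT and at 1388, 1232 and 1292 in SD-WT. All SD libraries were below all controls, and both groups were narrow. It fell by 0.38 ± 0.07 on the log2 scale (95% confidence interval -0.53 to -0.23, limma adjusted p = 0.00331), to 0.769 of the control level. In CTL-AcPbKO it was at 1927, 1963 and 1822 and in SD-AcPbKO at 944, 1376 and 1064. The AcPb-/- controls were the highest of the 12 libraries, and SD-AcPbKO replicate 03 lay within the range of SD-WT. The log2 fold change was -0.77 ± 0.12 (-1.05 to -0.49, limma adjusted p = 0.00298), to 0.587 of the control level.

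The other junction genes among the members were not called lower. Pecam1 (chr11:106654217-106750628, minus strand) was at 1213, 1087 and 1154 in CTL-WT and 1659.9, 1530.3 and 1374 in SD-WT, and at 1172, 1202 and 1215 in CTL-AcPbKO and 1344, 1624 and 1395 in SD-AcPbKO. Every SD library exceeded every control of its genotype. It rose by 0.40 ± 0.08 (0.22 to 0.58, limma adjusted p = 0.00669) in wild-type and by 0.28 ± 0.08 (0.10 to 0.46, limma adjusted p = 0.0321) in AcPb-/- mice. The AcPb-/- call stayed under 0.05 without SD-AcPbKO replicate 02 and was 0.0656, 0.0881, 0.0677, 0.0573 and 0.0646 without control 03, 04 or 05 or SD replicate 03 or 04.

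Cdh5 (chr8:104101625-104144511, plus strand) was at 1075, 941 and 1013 in CTL-WT, 1302, 1205 and 953 in SD-WT, 1089, 1054 and 1043 in CTL-AcPbKO and 1138, 1311 and 1042 in SD-AcPbKO. In each genotype the SD library numbered 04 lay among or below the controls and the other 2 above them. The log2 fold changes of 0.18 ± 0.11 (-0.06 to 0.43, limma adjusted p = 0.264) and 0.13 ± 0.09 (-0.07 to 0.33, limma adjusted p = 0.329) did not pass. Without SD-WT replicate 04 the wild-type value was 0.31 (limma adjusted p = 0.0135). The ratio of Cldn5 to Cdh5 normalized counts was 1.60 to 1.75 in CTL-WT, 1.02 to 1.36 in SD-WT, 1.75 to 1.86 in CTL-AcPbKO and 0.829 to 1.05 in SD-AcPbKO, so within each genotype the SD libraries lay below the controls.

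Flt1 (chr5:147561604-147726011, minus strand) was at 3347, 3444 and 3544 in CTL-WT and 5196, 5027 and 3498 in SD-WT. SD-WT replicate 04 lay within the control range and the other 2 SD libraries far above it. The gene passed in wild-type mice at a log2 fold change of 0.39 ± 0.13 (0.11 to 0.67, limma adjusted p = 0.0467). That call was lost with a pseudocount of 10 (adjusted p = 0.0643) and on leaving out CTL-WT replicate 01 (0.113), 02 (0.123) or 03 (0.0765) or SD-WT replicate 01 (0.181) or 02 (0.178). In CTL-AcPbKO Flt1 was at 3381, 3394 and 3526 and in SD-AcPbKO at 4563, 5121 and 4013. These groups did not overlap, and Flt1 rose by 0.41 ± 0.09 (0.21 to 0.60, limma adjusted p = 0.00907).

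Tek (chr4:94739289-94874976, plus strand) was at 1148, 962 and 1008 in CTL-WT, 1131, 1135 and 985 in SD-WT, 1039.7, 957 and 1153 in CTL-AcPbKO and 964, 1083 and 941 in SD-AcPbKO. All 4 groups overlapped. The log2 fold changes were 0.06 ± 0.09 (-0.14 to 0.26, limma adjusted p = 0.670) in wild-type and -0.07 ± 0.09 (-0.28 to 0.13, limma adjusted p = 0.604) in AcPb-/- mice.

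Ly6c1 (chr15:75044018-75048830, minus strand) was at 1085, 1100.0 and 1123 in CTL-WT and 1938, 1767 and 1771 in SD-WT. The controls spanned a narrow range well under the SD libraries. It rose by 0.72 ± 0.07 (0.58 to 0.87, limma adjusted p = 0.000189), a 1.65-fold increase. In CTL-AcPbKO it was at 866, 973 and 1162 and in SD-AcPbKO at 1454, 1639 and 1457. The groups were again apart, and Ly6c1 rose by 0.61 ± 0.11 (0.36 to 0.86, limma adjusted p = 0.00455). Of its 100-base exon stretches, 10.1% occur in another gene, 9.05% in the paralog Ly6c2. The effect of these stretches on its counts was not tested.

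**Figure D2:**
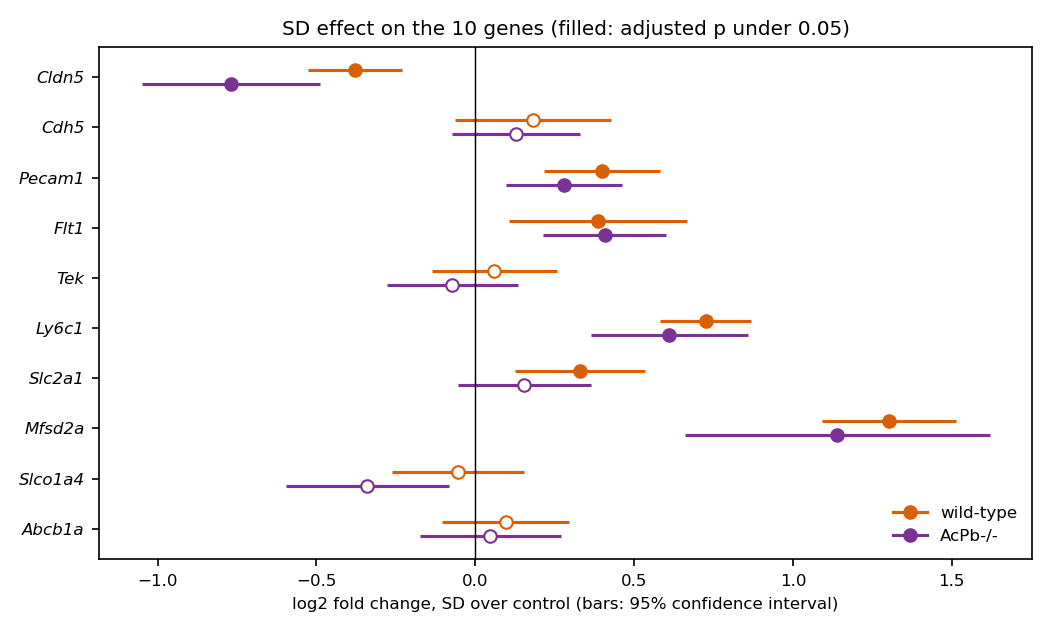
Log2 fold change of SD over control (x axis) of the 10 genes (y axis) in wild-type and AcPb-/- mice, from limma on 6 libraries each, with 95% confidence intervals as bars and filled symbols for an adjusted p under 0.05. Mfsd2a (1.30 and 1.14) and Ly6c1 (0.72 and 0.61) lie farthest to the right and Cldn5 (-0.38 and -0.77) to the left.

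The calls were fewer, among the members and over all genes, when the libraries with Xist were treated apart. A limma fit of all 12 libraries called 6 members in each genotype, and 5108 genes in wild-type and 6485 in AcPb-/- mice. Adding a term for the libraries with Xist left 4 members in each genotype, and 4057 and 5189 genes. With a term for these libraries in a limma fit of the 12 libraries, Mfsd2a (log2 fold change 1.49), Ly6c1 (0.84), Slc2a1 (0.52) and Pecam1 (0.38) were called in wild-type mice, at adjusted p of 0.00124, 0.00067, 0.00304 and 0.0248, while Cldn5 (-0.40) was at 0.0529 and Flt1 (0.42) at 0.0795. In AcPb-/- mice the same term left calls for Mfsd2a (1.32), Ly6c1 (0.72), Slc2a1 (0.34) and Cldn5 (-0.79), at adjusted p of 0.00108, 0.000595, 0.0172 and 0.00136, and Flt1 (0.44) and Pecam1 (0.25) were at 0.0596 and 0.0964.

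With the 4 libraries left out, only 1 control per genotype remained, which was assumed to vary like the other groups. Ly6c1 was then the only member called in each genotype, at 0.75 in wild-type (limma adjusted p = 0.0431) and 0.81 in AcPb-/- mice (limma adjusted p = 0.0237). Mfsd2a was at 1.45 and 1.37 (limma adjusted p = 0.0679 and 0.0528) and Cldn5 at -0.40 and -0.79 (limma adjusted p = 0.269 and 0.0624). Slc2a1 was at 0.52 and 0.34 (limma adjusted p = 0.0700 and 0.123), Flt1 at 0.43 and 0.43 (0.333 and 0.303) and Pecam1 at 0.32 and 0.31 (0.222 and 0.213). Cdh5 was at 0.09 and 0.09, Abcb1a at 0.13 and 0.22, and in AcPb-/- mice Tek at -0.06, none of them called. Of the 6 wild-type and 5 AcPb-/- calls, all kept their direction in both of these fits. Tek and Slco1a4, not called in wild-type mice, changed sign there, to -0.0077 and 0.20 with the term and to -0.09 and 0.18 without the libraries. The control without Xist was the lowest control of its genotype for Slc2a1, Mfsd2a, Slco1a4, Abcb1a, Ly6c1 and Flt1 in both genotypes.

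**Figure D3:**
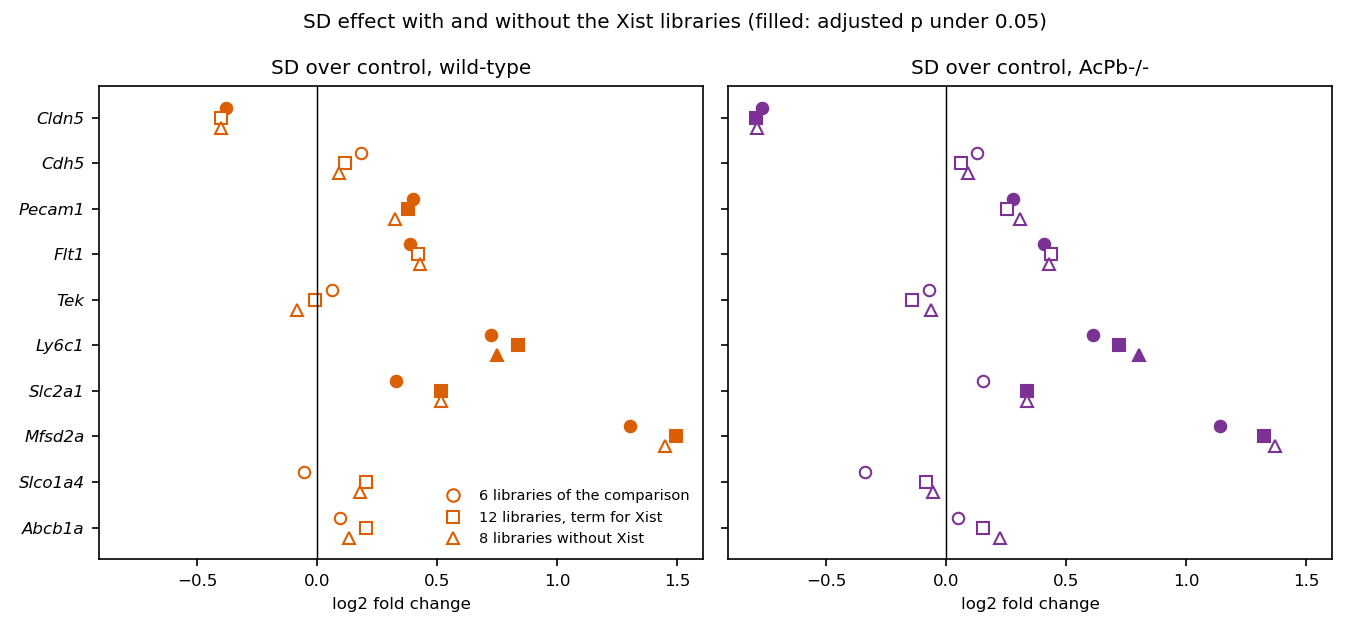
Log2 fold change of SD over control (x axis) of the 10 genes (y axis) in the 6 libraries of each comparison (circles), in 12 libraries with a term for Xist (squares) and in the 8 libraries without Xist (triangles), filled where the adjusted p was under 0.05. Only Ly6c1 is filled for all 3 in both genotypes, and Slco1a4 in wild-type mice lies on both sides of 0.

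Without SD-AcPbKO replicate 04, the library with Ttr, 4 members passed in AcPb-/- mice. Over all genes 3575 passed in that fit, against 5633 with the library. Cldn5 was at -0.74 (limma adjusted p = 0.0157), Mfsd2a at 1.11 (0.0243), Ly6c1 at 0.64 (0.0168) and Flt1 at 0.50 (0.00772), close to their values with it.

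No member differed between genotypes at the threshold. In CTL-AcPbKO against CTL-WT, 0 of 10 members passed in limma and 0 in DESeq2 and edgeR. Over all genes, 0.0197% passed in limma (4 genes), 93 genes in DESeq2 and 8 in edgeR. By limma 1 member had an unadjusted p under 0.05, as did 1730 of the 20273 genes tested. The member was Cldn5, higher in AcPb-/- controls by 0.17 ± 0.06 (0.04 to 0.30, limma adjusted p = 0.465), with all 3 AcPb-/- controls above all 3 wild-type controls. For the comparisons between genotypes, the share of all genes whose groups do not overlap is not given here. In SD-AcPbKO against SD-WT, 0 of 10 passed in limma and 0 in DESeq2 and edgeR. Over all genes, 0.0145% passed in limma (3 genes), 97 genes in DESeq2 and 9 in edgeR. By limma 2 members had an unadjusted p under 0.05, as did 1265 of the 20621 genes tested. The 2 members were Ly6c1 at -0.27 ± 0.07 (-0.43 to -0.10, limma adjusted p = 0.509) and Slco1a4 at -0.24 ± 0.06 (-0.39 to -0.10, limma adjusted p = 0.460), each lower in all 3 SD-AcPbKO libraries. The intervals of the other members in this comparison ranged as widely as -0.64 to 0.19 for Mfsd2a.

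Whether the SD effect differed by genotype was tested with the interaction term of limma over the 12 libraries. It passed for 0 of 10 members and for 0% of 20978 genes, with 839 genes and 1 member at an unadjusted p under 0.05, and among all genes DESeq2 called 1 and edgeR 0. The member was Cldn5, with a difference of -0.39 ± 0.15 (95% confidence interval -0.72 to -0.07, limma adjusted p = 0.986). For Mfsd2a the difference was -0.17 (-0.73 to 0.40), for Slco1a4 -0.29 (-0.64 to 0.07) and for Ly6c1 -0.12 (-0.40 to 0.16), and these 3 intervals include 0.

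In SD-AcPbKO against CTL-WT, where genotype and SD differ together and the libraries are those of the comparisons above, 6 of 10 members passed, against 27.7% of 20560 genes. Cldn5 was at -0.60, Mfsd2a at 1.08, Ly6c1 at 0.46, Flt1 at 0.40 and Pecam1 at 0.33, and Slco1a4 passed at -0.30 (limma adjusted p = 0.0442). The Slco1a4 call was lost without CTL-WT replicate 02 (adjusted p = 0.144) or 03 (0.147) and without SD-AcPbKO replicate 02 (0.0991), 03 (0.0678) or 04 (0.130), and its log2 fold change was -0.0397 with the term for Xist. The Pecam1 call was lost without CTL-WT replicate 02 (log2 fold change 0.29, adjusted p = 0.0730). Without the libraries with Xist Ly6c1 alone of the 10 passed (0.48, limma adjusted p = 0.0475).

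Across the 12 libraries the members did not vary as a single block. As a description of libraries that differ in SD, depth and Xist together, Pearson's r of log2 values was 0.899 between Pecam1 and Flt1, 0.895 between Ly6c1 and Mfsd2a, 0.861 between Cdh5 and Flt1 and 0.823 between Slc2a1 and Mfsd2a (n = 12). Cldn5 was negatively correlated with Mfsd2a (r = -0.903) and Ly6c1 (r = -0.733), and Tek was near 0 with Mfsd2a (r = -0.0374). Among 13269 genes averaging at least 50 normalized counts, those whose log2 values were most like the members' mean standardised value were Enpep (r = 0.936), Ppp1r37 (0.918), Dmpk (0.913), Vcpkmt (0.913), Lrrfip2 (0.907), Ccdc141, Adgrf5, Alpk1, Myo5c and Dtx3l (0.899), and the lowest were Gnl3l (r = -0.949), Xkr4, Ankib1, Wbscr17 and Slc37a1 (-0.909). Of the genes named here, only Vcpkmt and Adgrf5 were called higher with SD and Xkr4 and Wbscr17 lower, all in wild-type mice only. The likeness is thus not a list of genes that respond to SD.

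Other genes of the endothelium are given by lists that were written with earlier results of these data known, and some genes, such as Tie1, stand in more than 1 list. The counts are to be read against the 25.4% of all genes called in wild-type and the 27.4% called in AcPb-/- mice, and a share near these is no result about a list. Of 24 pan-endothelial genes besides the members, 2 rose and 4 fell in wild-type mice and 6 passed in AcPb-/- mice, each of them lower, with median log2 fold changes of -0.0085 and -0.24. Pltp, a phospholipid transfer protein, fell by 0.74 and 0.85, Itm2a, a membrane protein of barrier endothelium, by 0.56 and 0.59, Egfl7, a secreted endothelial protein, by 0.43 and 0.72, and the receptor Tie1 by 0.33 and 0.53, wild-type first. The summed level of the 24 genes was 38161 to 40008 normalized counts in CTL-WT, 36779.7 to 39381 in SD-WT, 37204 to 40452 in CTL-AcPbKO and 32056 to 39835 in SD-AcPbKO. In wild-type mice the summed level overlapped while single genes moved up and down. Of 10 arterial and venous genes, 1 rose and 1 fell in wild-type and 1 rose and 2 fell in AcPb-/- mice. The arterial gene Gkn3 was at 114 to 121 normalized counts in CTL-WT and 32.6 to 45.2 in SD-WT, and fell by 1.60 ± 0.18 (limma adjusted p = 0.000512) and 1.77 ± 0.19 (limma adjusted p = 0.000915), the latter in AcPb-/- mice. Mgp, matrix Gla protein, rose by 0.55 and 0.73, and Ephb4, a venous ephrin receptor, fell by 0.59 in AcPb-/- mice.

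Of 16 partners of the junction, 4 passed in wild-type and 3 in AcPb-/- mice, each of them higher, against 25.4% and 27.4% of all genes called in either direction. These were the scaffold Tjp1 (0.30 and 0.36), Cldn12 (0.25 and 0.34) and the catenins Ctnna1 (0.28 and 0.32) and, in wild-type mice, Ctnnd1 (0.29). The median of the 16 was 0.035 and 0.15. Of 21 further barrier transporters and receptors, 6 rose and 5 fell in wild-type and 1 rose and 7 fell in AcPb-/- mice. The transferrin receptor Tfrc fell by 0.75 ± 0.09 and 0.90 ± 0.06 (limma adjusted p = 0.000776 and 0.000444), and the monocarboxylate carrier Slc16a1 by 0.77 and 0.73. The taurine transporter Slc6a6 fell by 0.18 and 0.35, the organic anion transporter Slc22a8 by 0.40 and 0.60, and the efflux pump Abcc4 rose by 0.40 in wild-type mice. Many of these genes are expressed by other brain cells too, and their levels in bulk tissue are not those of the endothelium alone.

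Among 12 genes of VEGF and angiopoietin signaling, 2 rose and 1 fell in wild-type and 2 rose and 2 fell in AcPb-/- mice, against the same 25.4% and 27.4% of all genes. Vegfa, a ligand of the receptor Flt1, was at 3814 to 4682 normalized counts in CTL-WT and 5821 to 6320.1 in SD-WT, and rose by 0.49 ± 0.08 (limma adjusted p = 0.00214) and, in AcPb-/- mice, by 0.51 ± 0.09 (limma adjusted p = 0.0045). The coreceptor Nrp1 rose by 0.43 and 0.55, and Vegfb fell by 0.31 in AcPb-/- mice. Of 19 Wnt pathway genes and barrier regulators, 3 passed in wild-type mice, each lower, and 1 rose and 3 fell in AcPb-/- mice. Apcdd1, an inhibitor and target of Wnt signaling, fell by 0.64 and 0.83, the target Nkd1 by 0.36 and 0.44, the Norrin coreceptor Tspan12 by 0.51 in wild-type mice, and the ligand Wnt7a by 0.46 in AcPb-/- mice. Of 10 genes of caveolae and leukocyte adhesion, 1 rose and 2 fell in wild-type and 2 passed in AcPb-/- mice, both lower. Cav2, a caveolin, fell by 0.64 and 0.69, the chemokine receptor Ackr1 by 0.45 and 0.45, and Sdpr (Cavin2) rose by 0.32 in wild-type mice.

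**Figure D4:**
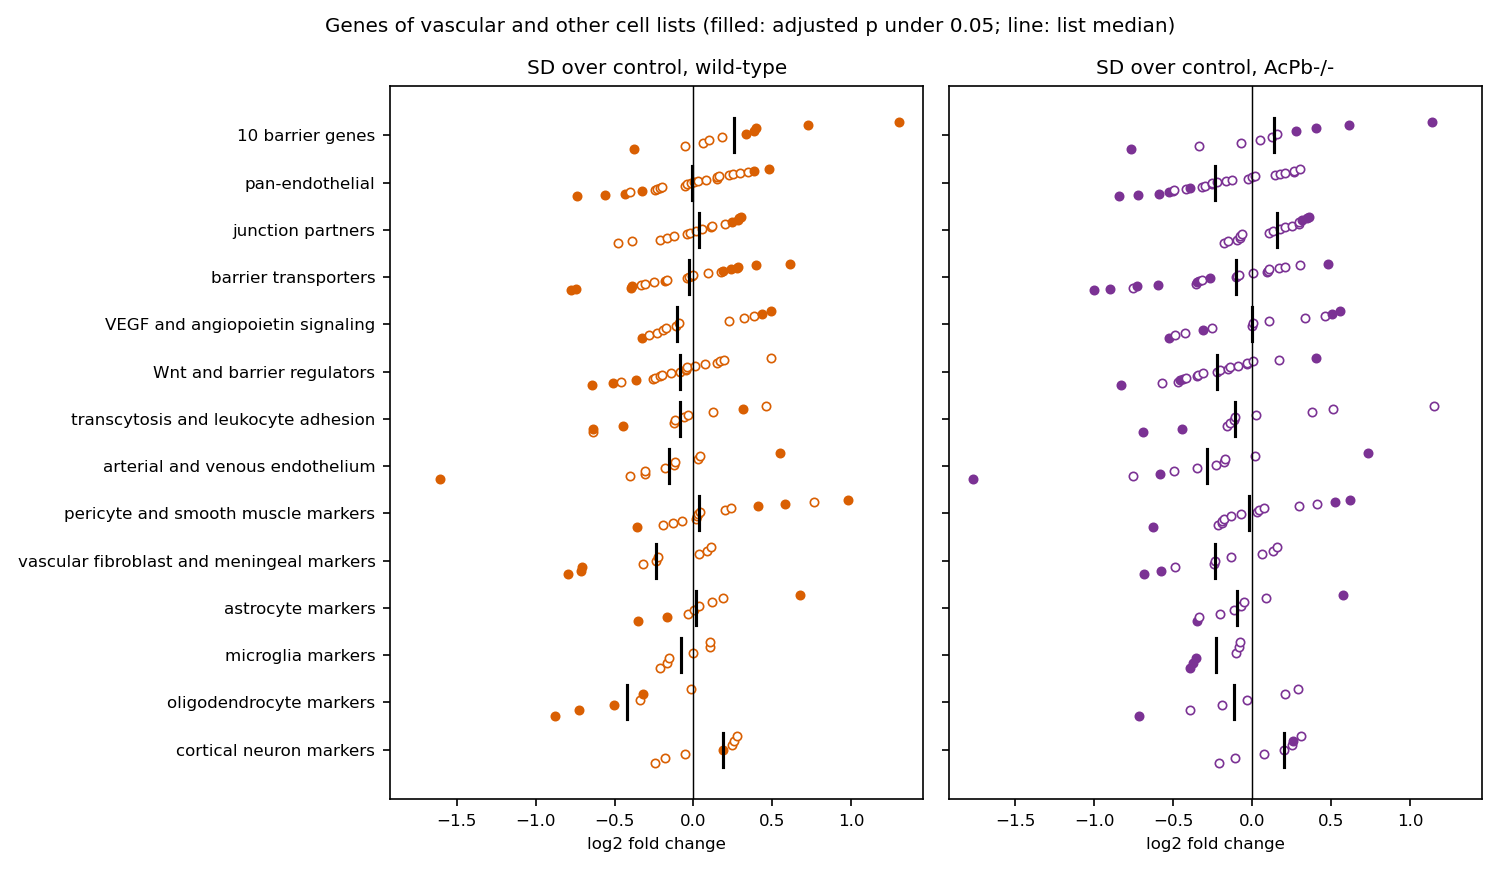
Log2 fold change of SD over control (x axis) of the genes of each list (y axis) in wild-type (left) and AcPb-/- mice (right), filled where the limma adjusted p was under 0.05, with the list median as a line. The 10 barrier genes have the medians 0.26 and 0.14, and Gkn3, at -1.60 and -1.77, is the leftmost point of each panel.

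Some markers of other cells passed the threshold with SD, where 25.4% of all genes in wild-type and 27.4% in AcPb-/- mice did, and their part in the members' values was not tested. Of 14 pericyte and smooth muscle markers, 3 rose and 1 fell in wild-type and 2 rose and 1 fell in AcPb-/- mice, among them Acta2 (0.98 and 0.62), Abcc9 (0.41 and 0.52) and Notch3 (-0.36 and -0.63), with summed levels of 12137 to 12498 in CTL-WT, 11467 to 13667 in SD-WT, 12456 to 12946 in CTL-AcPbKO and 10876 to 13402 in SD-AcPbKO. Of 9 fibroblast and meningeal markers, 3 passed in wild-type and 2 in AcPb-/- mice, each lower, with Col1a1 at -0.71 and -0.58, Col3a1 at -0.71 and -0.68 and Col1a2 at -0.79 in wild-type mice. Their summed level was 10364 to 10614 in CTL-WT, 9092 to 10111 in SD-WT, 10656 to 12794 in CTL-AcPbKO and 10456 to 11770.0 in SD-AcPbKO. Of 8 astrocyte markers, 1 rose and 2 fell in wild-type and 1 rose and 1 fell in AcPb-/- mice, with Gjb6 at 0.67 and 0.58, Aldh1l1 at -0.35 and -0.35 and Aqp4 at -0.17 in wild-type mice. Of 6 oligodendrocyte markers, 4 passed in wild-type and 1 in AcPb-/- mice, each lower, with Cnp at -0.88 and -0.72 and, in wild-type mice, Mog at -0.73 and Mag at -0.50. Of 6 microglia markers, 0 passed in wild-type mice by limma (2 at an unadjusted p under 0.05, 1 by DESeq2, 0 by edgeR), and 3 passed in AcPb-/- mice, each lower, among them Cx3cr1 (-0.37) and Csf1r (-0.39), and of 7 cortical neuron markers, Gad2 rose (0.19 and 0.26). Of 6 choroid plexus markers, 1 rose (Kl, 0.56) in wild-type mice and 0 passed in AcPb-/- mice by limma (1 at an unadjusted p under 0.05, 1 by DESeq2, 1 by edgeR). Their sum was 18285 in SD-AcPbKO replicate 04 and 337 to 642 in the other libraries. Of 5 red blood cell markers, the 4 globin genes were listed at 0 in every library and Alas2 was not called by limma, DESeq2 or edgeR, so blood in the tissue could not be read from this list.

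Of the 37 genes named from these lists and called in wild-type mice, 23 were called in every fit that left out 1 library, and the others lost the call in at least 1 of them, namely Aldh1l1, Aqp4, Cldn12, Col3a1, Ctnna1, Gad2, Kl, Nkd1, Notch3, Sdpr, Slc22a8, Slc6a6, Tjp1 and Tspan12. Of the 34 called in AcPb-/- mice, 19 kept the call in every such fit and Acta2, Aldh1l1, Cnp, Col1a1, Col3a1, Csf1r, Ctnna1, Ephb4, Gad2, Gjb6, Mgp, Nrp1, Slc16a1, Vegfb and Wnt7a did not. With the term for Xist 23 and 25 were called, and without the libraries with Xist 4 and 13, and the sign of all 37 and 34 was the same in both of these fits. Gkn3, Nkd1, Gjb6 and Cnp were called without the libraries with Xist in both genotypes, and Apcdd1, Cldn12, Cx3cr1, Itm2a, Mgp, Pltp, Slc6a6, Tfrc and Vegfa in AcPb-/- mice.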

How the data were processed

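TruSeq Stranded mRNA libraries, 3 per group, were sequenced paired-end at 100 bp. The authors aligned reads with HISAT2 2.2.1 to mm10, counted them per gene (HTSeq in the study's methods, featureCounts in the submitters' processing notes) and compared 2 groups at a time in DESeq2 1.31.16. The gene annotation and the strand setting are not given in the sources used here. The deposited values are a signal, read counts divided by size factors, in 5 tables of 24421 genes. The fold change, test score and p-value columns are the authors' own comparisons and were not used. All 732630 values came within 0.01 of a whole read once the size factors were undone, and the reads were equal between tables. Total reads on genes were 26504840 to 71857505 per library, and replicates differed by more than sampling noise.

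Each comparison was fitted with limma 3.58.1 (R 4.3.3, variance trend, pseudocount 1) over genes that had at least 1 read, with an adjusted p threshold of 0.05. The interaction used 12 libraries scaled together by median-of-ratios. Alternatives were DESeq2 1.42.0 and edgeR 4.0.16 on recovered reads, a pseudocount of 10, a mean of at least 10, all 4 groups in one fit, a term for libraries with Xist (at least 1000 reads), leaving these out, the replicate number as a block and leaving out each library. On these reads DESeq2 called 5378 genes and edgeR 5368 in wild-type mice, and 5804 and 5682 in AcPb-/- mice. The fits were tested on simulated data. The 10 members and the lists were chosen with earlier results of these data known. From each other list, up to 3 genes with the lowest adjusted p among those past the threshold in each SD comparison are named. Of these, 1 is included in the counts and not reported by itself here. Positions and exons are from GENCODE M21 on GRCm38, promoters from RefSeq on GRCm38.p6, and the letters of a promoter were matched on both strands.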

Additional observations from a re-analysis of the deposited data

How the results depend on the processing

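The counts of members called with SD were 6 in wild-type mice, 5 in AcPb-/- mice and 6 in SD-AcPbKO against CTL-WT. Without the libraries with Xist they were 1, 1 and 1, and the calls over all genes were 680, 2080 and 1318 against 5186, 5633 and 5697. With a replicate block, which leaves 1 residual degree of freedom, they were 0, 0 and 0 and no gene of all was called. The replicate numbers come from the titles and are not described as a pairing of samples. Deviations from the group means correlated between -0.43 and 0.23 over 10 same-numbered pairs. Pairs with unlike numbers were not compared, so these values cannot decide whether samples were paired. In CTL-AcPbKO against CTL-WT the groups share fewer than 2 numbers, so no fit with a replicate block was possible there. Leaving out 1 library gave 4 to 8 members in wild-type mice and 4 to 5 in AcPb-/- mice. The 8 were called without SD-WT replicate 04, where the calls over all genes rose too, to 6222. Of all genes, 2699 were called in wild-type mice without CTL-WT replicate 02, 2836 without SD-WT replicate 02 and 2941 without SD-WT replicate 01, and in AcPb-/- mice 3417 without CTL-AcPbKO replicate 04, 3393 without SD-AcPbKO replicate 02 and 3575 without SD-AcPbKO replicate 04.

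Among the results printed in the text, the sign changed only for members that were not called in that comparison. In wild-type mice Slco1a4 was at 0.034 with the replicate block, 0.20 with the term for Xist and 0.18 without the libraries with Xist, and from -0.17 to 0.032 on leaving out 1 library. Tek was at -0.0077 with the term for Xist and -0.086 without the libraries with Xist. In AcPb-/- mice Tek was at 0.019 with the replicate block and Abcb1a from -0.041 to 0.12 on leaving out 1 library. Between genotypes after SD, Mfsd2a was at 0.029 with the replicate block and from -0.43 to 0.016 on leaving out 1 library. In the interaction Mfsd2a was from -0.38 to 0.074 on leaving out 1 library, and Ly6c1 was at 0.0021 with the replicate block and 0.056 without the libraries with Xist. The cause was not tested. In the comparisons between genotypes and the interaction, 0 members were called in any alternative. In limma 1, 2 and 1 members were at an unadjusted p under 0.05, where 1730, 1265 and 839 of all genes were. Other members without a printed value in the comparisons with a genotype difference, or in the interaction, changed sign in some alternatives too and are not in the following counts. Of 1489 values of the printed results under an alternative, 1147 kept their direction and side of the threshold, 320 kept their direction and lost the call, 8 gained a call and 14 changed sign.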
